A study of Mus musculus with 3 samples.

Results

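The Slc25 genes encode the mitochondrial carrier family, the inner-membrane proteins that exchange metabolites between the cytosol and the mitochondrial matrix. Members were taken as the annotated mouse genes whose symbol starts with Slc25a and that have at least 1 transcript of type protein_coding. Of 48 genes with such a symbol 47 qualified, out of 55536 annotated genes in the tables, and the pseudogene Slc25a5-ps was left out. The cells were bone-marrow-derived macrophages, primary cells grown out of marrow precursors, of the mouse strain C57BL/6J. They had received 100 ng/ml Lipid A, the part of bacterial endotoxin that Toll-like receptor 4 binds, for 12 h, were then kept for 12 h after its removal, and met the same dose again for 30 min. RNA came from the cytosolic fraction, 1 µg entered each library, and ribosomal RNA was depleted before total RNA sequencing. All 3 libraries belong to this 1 group, no genetic change is labelled, and sex and age were not recorded. Untreated cells, other times and other fractions were not used here, so the values describe levels and their spread, not a response to Lipid A. The labels give the same donor for all libraries, so SDs and p-values cover the spread between these 3 samples alone and may reflect technical differences.

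Carriers of this family are built from repeats of a common module and mostly swap a substrate on one side of the membrane for another on the other side. The best known are the ADP/ATP translocases and the phosphate carrier, which feed ATP synthase, and the carriers for citrate, malate, aspartate and glutamate, which link matrix metabolism to cytosolic fatty acid synthesis and redox balance. In activated macrophages export of citrate and the handling of succinate are widely studied steps. All members are encoded in the nucleus, and most are made in the cytosol and inserted into the inner membrane by the TIM22 complex.

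Annotated genes received 28759407, 54709008 and 49878183 expected counts in replicates 1, 2 and 3. Levels are in TPM, which scales counts by transcript length and library total, and means are ± SD over n = 3 libraries. The macrophage marker list was detected in 8 of 8 genes, with a summed level of 4810 to 5080 TPM. Of the neutrophil markers 2 of 6 were detected, with sums of 6.73 to 9.80 TPM, and none of the T cell, B cell, dendritic or stromal markers was. In bulk RNA, fewer cells of a type and less RNA per cell cannot be told apart.

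Most carrier genes were expressed, and a pair of them held a large part of the family's RNA. At least 1 TPM in every library, the limit used here for a detected gene, was reached by 32 of 47 members (68.1%), against 123 of 338 other Slc genes (36.4%) and 9068 of 22015 nuclear protein-coding genes (41.2%). Other nuclear genes of mitochondria were detected more completely, with 45 of 46 Ndu genes of complex I and 78 of 78 genes of mitochondrial ribosomal proteins. The median of log2(TPM + 1) over all 47 members was 2.26, 2.21 and 2.12 in replicates 1, 2 and 3. Averaged over the libraries, the same median was 0.05 for other Slc genes and 0.19 for all nuclear protein-coding genes. It was 4.89 for Ndu genes and 3.71 for mitochondrial ribosomal genes. The carriers thus lay above other solute carriers and below the Ndu genes on this scale, with undetected genes included, as a description with no test. Among detected genes alone the median level, likewise averaged, was 7.20 TPM for carriers and 7.54 TPM for other Slc genes. It was 8.25 TPM for all nuclear protein-coding genes. There the carriers did not lie above other Slc genes on average, though they did in replicate 2, at 7.37 against 6.71 TPM. All members together summed to 598.9 ± 9.54 TPM, which was 0.206% ± 0.00444 of the TPM of nuclear protein-coding genes.

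**Figure D1:**
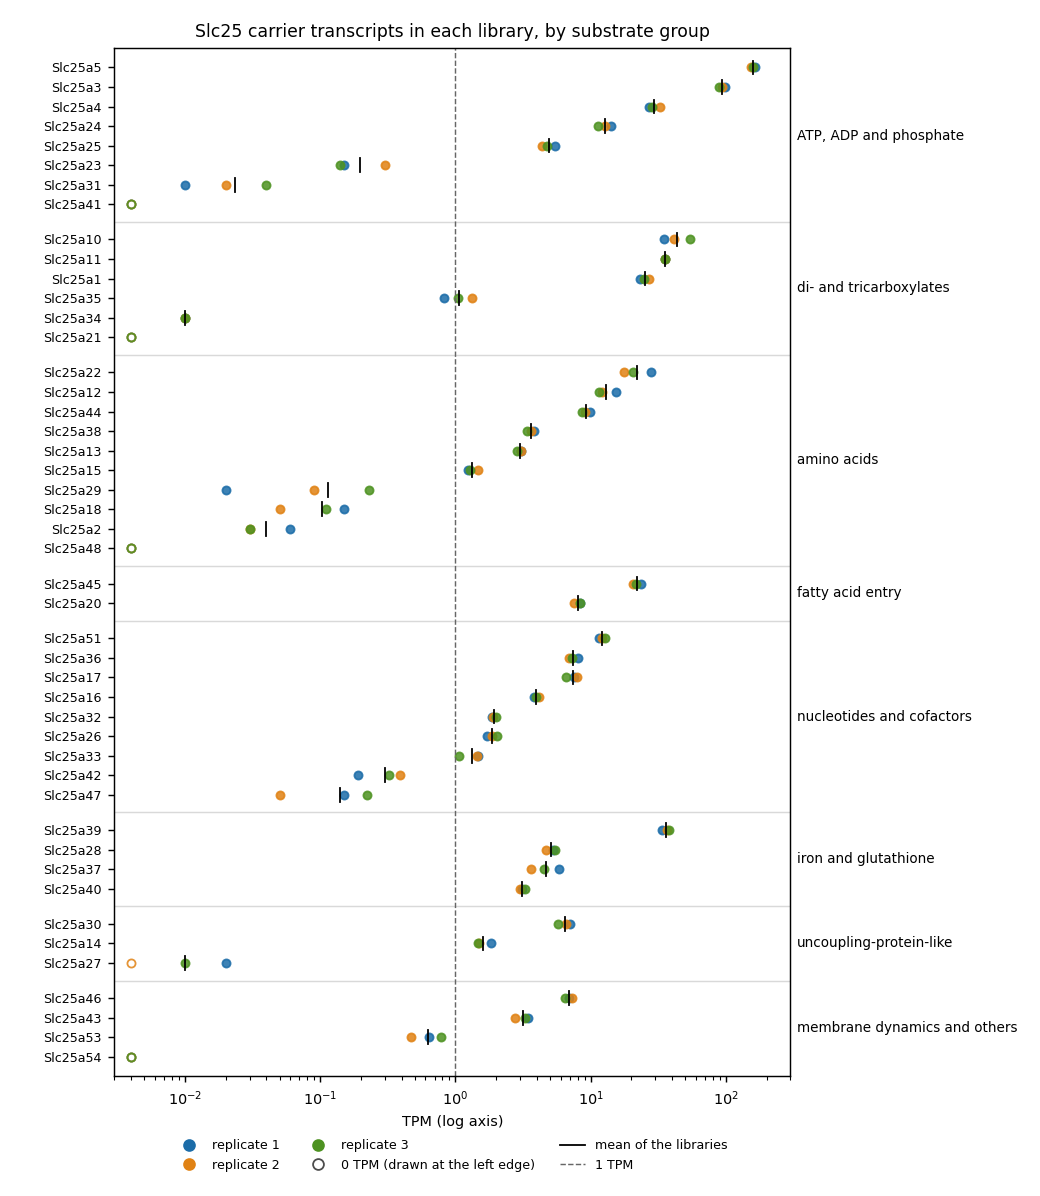
TPM of 46 of the 47 carriers (log axis) in the 3 libraries, grouped by substrate, with the mean as a vertical bar, 1 TPM as a dashed line and open symbols for 0 TPM. Slc25a5 and Slc25a3 stand at the right, 31 of those drawn lie right of the dashed line in every library, and Slc25a41, Slc25a21, Slc25a48 and Slc25a54 are at 0 in all 3.

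The group for ATP, ADP and phosphate held 50.1% ± 1.14 of the members' TPM, with 5 of its 8 genes detected. The phosphate carrier Slc25a3 (ENSMUSG00000061904.12, chromosome 10, 91116574 to 91124059 of mm10) stood at 98.9, 93.3 and 88.3 TPM in replicates 1, 2 and 3. Slc25a5 (ENSMUSG00000016319.3, chromosome X, 36795651 to 36798807), the ADP/ATP translocase of most dividing cells, stood at 163.3, 154.7 and 159.8 TPM. These were the highest members in each library, and together they held 42.2% ± 0.924 of the family's TPM. Slc25a4, the ADP/ATP translocase typical of heart and muscle, had 26.9, 32.5 and 28.5 TPM. Slc25a31, the translocase of the germ line, had 1, 3 and 6 expected counts, at or near the 3 counts that a count of 0 would still allow. Slc25a5 exceeded Slc25a4 by a log2 of 2.41 ± 0.18 within libraries, a 5.31-fold difference on the TPM + 1 scale, and Slc25a3 lay below Slc25a5 by -0.76 ± 0.07.

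Slc25a3 has a pair of mutually exclusive coding exons, known from mammals as A, used in heart and skeletal muscle, and B, used in most other tissues. They are shown here because they tell apart the coding RNAs of the phosphate carrier to which counts were assigned. Both are read 5′ to 3′ from the annotated transcripts on the minus strand of mm10. Capitals mark bases that have no identical partner in the alignment of the exons. Exon A lies at chr10:91122207-91122331 and exon B at chr10:91121922-91122043.
Slc25a3 exon A: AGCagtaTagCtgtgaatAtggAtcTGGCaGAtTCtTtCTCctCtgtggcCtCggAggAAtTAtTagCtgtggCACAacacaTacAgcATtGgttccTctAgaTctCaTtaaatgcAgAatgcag
Slc25a3 exon B: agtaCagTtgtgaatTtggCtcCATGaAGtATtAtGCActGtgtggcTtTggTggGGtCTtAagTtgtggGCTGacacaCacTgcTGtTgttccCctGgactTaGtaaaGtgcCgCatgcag
The exons have 125 and 122 bases, and 80 bases are identical, 65.6% of the shorter. Coding transcripts with exon A held 0.328%, 0.256% and 0.111% of the gene's expected counts in replicates 1, 2 and 3. Coding transcripts with exon B held 97.4%, 98.4% and 95.8%. The B form was therefore almost the whole of the coding RNA in each library. The rest was mostly Slc25a3-208, typed as a retained intron, at 1.86%, 1.07% and 3.51%.

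The calcium-regulated ATP-Mg/phosphate carriers differed widely in level. Slc25a24 had 14.0, 12.7 and 11.3 TPM, Slc25a25 had 5.49, 4.37 and 4.78 TPM, Slc25a23 had 0.15, 0.30 and 0.14 TPM, and Slc25a41 had 0 counts in every library. Slc25a24 exceeded Slc25a25 by a log2 of 1.22 ± 0.13 and Slc25a23 by 3.51 ± 0.17. Slc25a25 overlaps Naif1 on the other strand, whose mean count was 43.2% of its own, and whether counting used strand is not given in the sources used here. Its counts came mostly from Slc25a25-205, at 93.2%, 94.3% and 95%, a coding transcript that lacks a 36-base exon (chr2:32420656-32420691, minus strand). That exon is shown in capitals, with 20 bases of the flanking coding exons in lower case, since 3 of the 12 annotated transcripts of the gene hold it and the leading form does not.
Slc25a25 36-base exon: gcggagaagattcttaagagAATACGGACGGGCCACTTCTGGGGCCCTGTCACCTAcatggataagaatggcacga
Transcripts that hold it had 2.62%, 3.87% and 1.07% of the gene's counts. In the second deposited quantification Slc25a25-201, which holds it, had 8.09%, 7.18% and 5.77%, and Slc25a25-205 still led.

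Carriers of di- and tricarboxylates held 17.6% ± 1.90 of the family's TPM, nearly all of it in 3 genes. Slc25a1, the citrate carrier, had 23.3, 27.1 and 25 TPM in replicates 1, 2 and 3. Slc25a11, the oxoglutarate-malate carrier of the malate-aspartate shuttle, had 35.5, 35.3 and 35.5 TPM. Slc25a10 (ENSMUSG00000025792.9, chromosome 11, 120491840 to 120499187), which exchanges malate or succinate for phosphate, had 34.6, 41.4 and 54.2 TPM. Slc25a11 was nearly level across libraries, whereas Slc25a10 was highest in replicate 3, and the order of this pair turned between replicate 1 and the other libraries. Their difference, -0.26 ± 0.32 for Slc25a11 minus Slc25a10, was within its spread, while Slc25a1 lay below Slc25a11 in every library, by -0.48 ± 0.11. Slc25a11 overlaps Rnf167 on the other strand, which had a mean count of 17.5% of its own. Slc25a35, a carrier with no settled substrate, lay at the limit of detection with 0.82, 1.33 and 1.04 TPM. Slc25a34 had 1, 2 and 2 counts and the oxodicarboxylate carrier Slc25a21 none.

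Of 10 genes grouped here under amino acid carriers, not all with a settled substrate, 6 were detected. Together the group held 8.73% ± 1.2 of the members' TPM. The glutamate carrier Slc25a22 (ENSMUSG00000019082.18, chromosome 7, 141429744 to 141437892) had 27.9, 17.5 and 20.6 TPM, while its relative Slc25a18 had 12, 9 and 16 counts. The aspartate-glutamate carriers, calcium-binding parts of the malate-aspartate shuttle, were Slc25a13 at 3.05, 3.04 and 2.87 TPM and Slc25a12 at 15.3, 12.1 and 11.6 TPM. Slc25a22 exceeded Slc25a13 by a log2 of 2.50 ± 0.32, and Slc25a13 lay below Slc25a12 by -1.80 ± 0.18. For Slc25a12 this level rests largely on transcripts not typed as coding, as given further on. The branched-chain amino acid carrier Slc25a44 averaged 9.22 ± 0.670 TPM and the glycine carrier Slc25a38, which serves haem synthesis, 3.59 ± 0.214 TPM. The ornithine carrier of the urea cycle, Slc25a15, was among the lowest detected members with 1.23, 1.47 and 1.27 TPM, and its paralogue Slc25a2 had 3 counts in each library. Slc25a29, a carrier of basic amino acids, had 2, 10 and 28 counts, and Slc25a48 had none.

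Both carriers linked to fatty acid entry were detected. Slc25a20 exchanges acylcarnitines for carnitine and had 8.31, 7.56 and 8.32 TPM. Slc25a45, which is tied to the methylated amino acid that carnitine is made from, had 23.7, 20.5 and 21.6 TPM, above Slc25a20 in every library. Its counts were divided between Slc25a45-201 with 45.2%, 43.7% and 39.4% and Slc25a45-206 with 38.6%, 42.8% and 44.8%, coding transcripts with the same 864 coding bases. Slc25a20 exceeded Slc25a29, which carries basic amino acids and resembles it in sequence, by a log2 of 3.03 ± 0.14.

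Carriers of nucleotides and cofactors were low but mostly present, with 8 of 10 detected and 7.35% ± 0.232 of the family's TPM. The NAD carrier Slc25a51 led with 11.5, 12.2 and 12.7 TPM. Between 6.59 and 8.02 TPM lay every library of the pyrimidine nucleotide carrier Slc25a36 and of Slc25a17, a family member of peroxisomes. Slc25a16, linked to coenzyme A, had 3.81, 4.14 and 3.96 TPM. The coenzyme A carrier Slc25a42 had 0.19, 0.39 and 0.32 TPM and was not detected. Slc25a16 thus exceeded Slc25a42 by a log2 of 1.94 ± 0.07. The folate and FAD carrier Slc25a32 averaged 1.91 ± 0.0611 TPM and the S-adenosylmethionine carrier Slc25a26 1.87 ± 0.165 TPM. Slc25a33, the other pyrimidine nucleotide carrier, had 1.47, 1.44 and 1.06 TPM and lay below Slc25a36, which had 8.02, 6.93 and 7.28 TPM, by a log2 of -1.86 ± 0.15. Slc25a47, known from liver, had 7, 4 and 15 counts.

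All 4 carriers of iron and glutathione were detected, with 8.18% ± 0.286 of the members' TPM. Slc25a39, which imports glutathione, had 34.0, 36.5 and 37.9 TPM, whereas its paralogue Slc25a40 had 3.10, 3.01 and 3.24 TPM, so that the difference was a log2 of 3.17 ± 0.07, or 9.01-fold on the TPM + 1 scale. The iron carriers were near level with each other. Slc25a37 (mitoferrin 1, ENSMUSG00000034248.7, chromosome 14, 69241848 to 69285112), known as the erythroid form, had 5.86, 3.63 and 4.53 TPM. Slc25a28 (mitoferrin 2, ENSMUSG00000040414.8, chromosome 19, 43663801 to 43674881), the broadly expressed form, had 5.28, 4.65 and 5.42 TPM. Slc25a37 was higher in replicate 1 and Slc25a28 in the other libraries, and the difference of -0.13 ± 0.22 was within its spread. Without replicate 1 it was -0.25 and past the call limit. Of 5 erythroid markers none was detected, their sum ranged from 0.26 to 0.73 TPM, and Slc4a1 had 0 counts in every library.

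The uncoupling-protein-like carriers and the remaining members were minor. Slc25a14 had 1.83, 1.49 and 1.46 TPM and Slc25a30 had 7.04, 6.55 and 5.70 TPM, a difference of -1.52 ± 0.08 for Slc25a14 minus Slc25a30, and Slc25a27 had 2, 1 and 3 counts. Slc25a46, which acts in outer-membrane dynamics and not as an exchanger, averaged 6.86 ± 0.406 TPM and Slc25a43 3.15 ± 0.352 TPM. Slc25a53 stood below the limit at 0.64, 0.47 and 0.78 TPM, and Slc25a54 had no counts. Members with 0 counts in every library were Slc25a21, Slc25a41, Slc25a48 and Slc25a54, which allows up to 0.104, 0.0548 and 0.0601 CPM (counts scaled to library size) in replicates 1, 2 and 3, from counting error alone.

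Carriers of the same fold under other symbols were partly more abundant than most members. Ucp2, the uncoupling protein of immune cells, had 180.2, 147.3 and 137.4 TPM, close to Slc25a5, and the difference of Slc25a5 minus Ucp2, 0.05 ± 0.18, changed sign between libraries. With coding transcripts alone it was 0.40 ± 0.11, and Slc25a5 was higher in 3 of 3 libraries. Ucp1, the brown-fat form, had 0 counts, and Ucp3 had at most 0.01 TPM. The outer-membrane relatives Mtch1 and Mtch2 averaged 39.6 ± 2.93 and 28.9 ± 1.71 TPM. Both subunits of the pyruvate carrier and the 3 porins Vdac1, Vdac2 and Vdac3, which let metabolites through the outer membrane, were detected. So were 12 of 12 genes of the import path for carriers, from Timm8b at 33.4 ± 4.27 TPM to the lipid kinase Agk, a TIM22 subunit, at 2.43 ± 0.280 TPM.

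Within libraries 15 pairs of members of like substrate or sequence, 1 of them with Ucp2, were compared. A difference was called where it had the same sign in 3 of 3 libraries and its mean exceeded 3 SD, which held for 12 pairs. The pairs not called were Slc25a11 with Slc25a10, Slc25a37 with Slc25a28 and Slc25a5 with Ucp2. The two-sided exact sign-flip test gave p = 0.25 for each called pair, the smallest that 3 libraries allow, and 0.3125 after Benjamini-Hochberg adjustment over the 15 pairs. In the order of mean TPM 4 of 31 neighbouring detected members were apart by the same rule, namely Slc25a5 above Slc25a3, Slc25a4 above Slc25a1, Slc25a45 above Slc25a12 and Slc25a13 above Slc25a32. The other 27 neighbouring pairs did not pass this rule, so it does not settle their ranks. Some of them kept their order in every library, such as Slc25a3 above Slc25a10 by 1.11 ± 0.4. Others changed sign between libraries, such as Slc25a39 and Slc25a11 at 0.02 ± 0.08. Differences on the log2(TPM + 1) scale understate those of low genes.

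**Figure D2:**
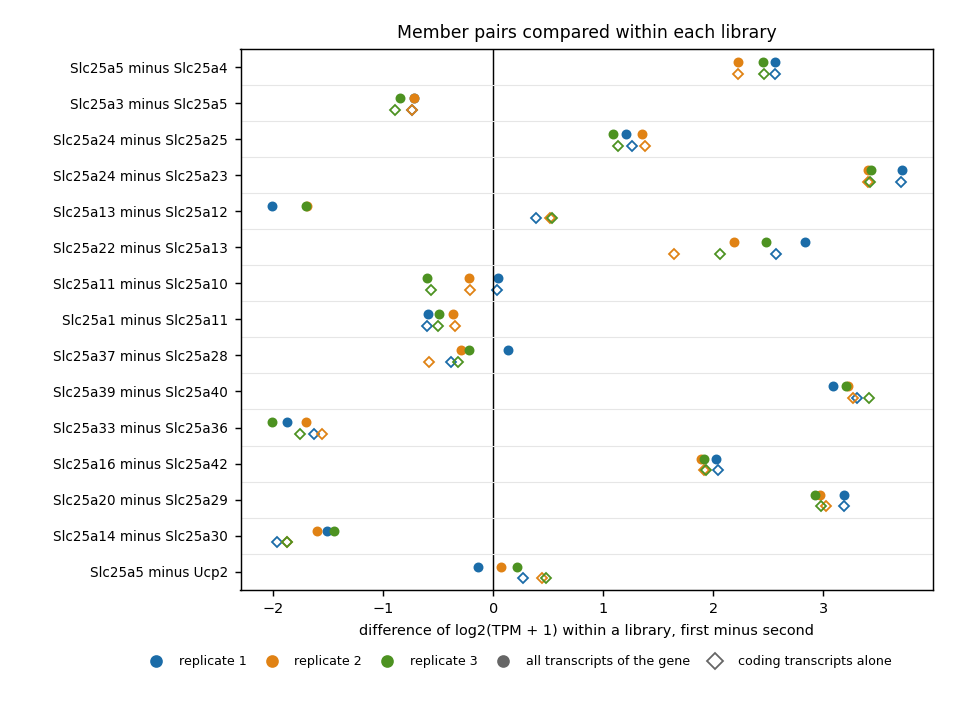
Difference of log2(TPM + 1), first gene minus second, for the 15 pairs in each library, from all transcripts of a gene (filled circles) and from coding transcripts alone (open diamonds). The pair Slc25a13 minus Slc25a12 lies left of 0 with all transcripts, from -2.01 to -1.69, and right of 0 with coding transcripts, from 0.39 to 0.53.

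Transcripts that are not typed protein_coding held over 25% of the expected count in every library in 4 of 32 detected members (12.5%), against 529 of 9068 detected nuclear protein-coding genes (5.83%). They were Slc25a12, Slc25a37, Slc25a28 and Slc25a14, while 23 of the 32 averaged under 5%. Such types mark RNAs annotated to end translation early and be degraded (nonsense_mediated_decay), to keep an intron, or to have no reading frame (processed_transcript). How counts fall among transcripts of a gene was estimated by the quantifier's model and not counted directly. In the second deposited quantification Slc25a28 missed the limit, at 22.3%, 9.35% and 41.9% in replicates 1, 2 and 3. Slc25a22 passed it there, at 25.6%, 40.2% and 27.3%.

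In Slc25a12 (ENSMUSG00000027010.16, chromosome 2, 71271063 to 71367749) these types held 64.9%, 61.1% and 61.2% of counts in replicates 1, 2 and 3. Because the coding transcript is long, they made up 86.4% ± 0.795 of the gene's TPM. Most of it was Slc25a12-207, typed nonsense_mediated_decay, with 58.5%, 53.0% and 50.3% of counts, against 35.1%, 38.9% and 38.8% in Slc25a12-206, the 1 coding transcript. Slc25a12-207 lacks an exon of 116 bases, which is not a multiple of 3, at chr2:71333605-71333720 on the minus strand. Its annotated reading frame has 261 coding bases, against 2031 in Slc25a12-206. The exon is shown in capitals between 20 bases of each neighbouring exon, as it is an exon of the coding form that the decay-typed form lacks.
Slc25a12 116-base exon: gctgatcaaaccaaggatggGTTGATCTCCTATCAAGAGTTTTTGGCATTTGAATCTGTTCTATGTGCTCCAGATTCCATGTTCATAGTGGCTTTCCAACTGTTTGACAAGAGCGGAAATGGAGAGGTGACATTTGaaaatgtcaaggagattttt
The transcripts also differ at the 3′ end, where Slc25a12-206 runs 3627 bases further. The exon and this end do not make up the whole difference between lengths of 6351 and 2392 bases. No annotated coding transcript joins this exon to the shorter 3′ end, so the share of Slc25a12-207 rests on the annotated models, and which of the differences carried the reads was not tested. With coding transcripts alone, a setting added after the values were seen, Slc25a13 stood at 2.89, 2.94 and 2.71 TPM and Slc25a12 at 1.96, 1.74 and 1.57 TPM. The difference Slc25a13 minus Slc25a12 was then 0.48 ± 0.08, higher for Slc25a13 in 3 of 3 libraries, where the gene totals had put it lower. The second deposited quantification gave a like split, with 71.6%, 68.9% and 69.0% of counts in transcripts not typed coding.

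Both iron carriers had large shares outside the coding type, and these shares moved between libraries. In Slc25a37 they were 62.2%, 50.3% and 66.3%, mostly in Slc25a37-203, which keeps an intron of 1756 bases and held 48.7%, 40.3% and 58.7% of counts. In Slc25a28 they were 32.0%, 26.3% and 53.2%, with 21%, 18.2% and 33.1% in the processed transcript Slc25a28-203 and 8.83%, 8.16% and 20.2% in the retained-intron form Slc25a28-202. The second quantification gave Slc25a28-203 less, at 9.74%, 0% and 19.8%. For Slc25a37 it put more outside the coding type, at 82.5%, 74.9% and 90.0%. In both genes the shares outside the coding type were lowest in replicate 2 and highest in replicate 3. The nuclear RNAs Malat1 and Neat1 summed to 323, 195 and 686 TPM in replicates 1, 2 and 3, in the same order. Their part in these shares was not tested. The order was not particular to the iron carriers, as Slc25a14 had it too, at 37.9%, 25.1% and 40.4%. It did not hold in Slc25a12, highest in replicate 1, or in Slc25a22, lowest in replicate 1. With coding transcripts alone Slc25a37 had 2.36, 1.85 and 1.70 TPM and Slc25a28 had 3.36, 3.25 and 2.37 TPM. Slc25a37 was then lower than Slc25a28 in 3 of 3 libraries, by -0.42 ± 0.13, which exceeded 3 SD. These coding levels rest on how the first deposited tables split the counts among transcripts.

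In Slc25a14 the shares were 37.9%, 25.1% and 40.4%, led by the decay-typed Slc25a14-205 with 23.3%, 16.7% and 33.0%, on only 95 to 177 counts for the gene. The second quantification gave Slc25a14-205 more, at 42.6%, 46.2% and 62.1%. Slc25a22, named after its values were seen, had 22.9%, 37.1% and 30.4%, so it missed the limit in replicate 1. Its decay-typed transcript Slc25a22-204 held 20.7%, 35.8% and 26.4% of counts. Compared with the coding Slc25a22-203, it starts from another first exon and carries 19 extra bases at the start of an exon, at chr7:141432140-141432158 on the minus strand. They are shown in capitals between 5 transcript bases on either side, because no coding transcript of the gene contains them.
Slc25a22 19 extra bases: gatggTCCTGCCCCCGCTCTATAGacaga
With coding transcripts alone Slc25a22 had 22.1, 11.3 and 14.5 TPM, and it still exceeded Slc25a13 by 2.09 ± 0.47.

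**Figure D3:**
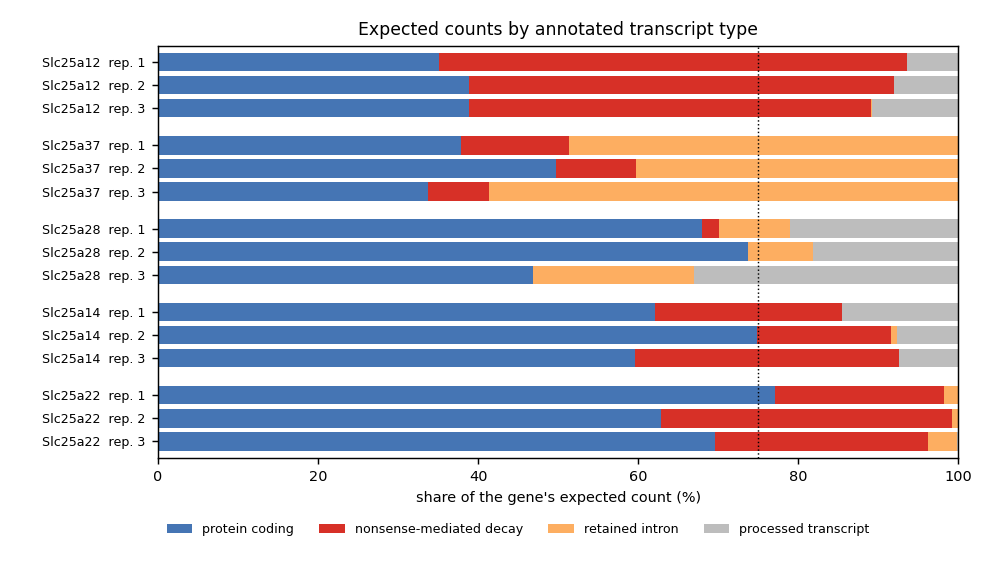
Share of each gene's expected count (%) by annotated transcript type in each library for the 4 members past the 25% limit and for Slc25a22. Coding transcripts (blue) end left of the dotted line at 75% in every library but replicate 1 of Slc25a22, and in Slc25a12 the red decay-typed part is 50.3% to 58.5%.

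The form of the leading coding transcript was uncertain in 4 detected members, Slc25a36, Slc25a40, Slc25a45 and Slc25a51, where it differed between libraries or between the deposited quantifications. In Slc25a51 the first tables gave Slc25a51-201 70.1%, 89.4% and 87.7% of counts, whereas the second gave it 10.7%, 6.93% and 24.3%. In Slc25a40 the leaders Slc25a40-202 and Slc25a40-201 differed little, at 45.9% ± 2.38 and 39.5% ± 6.17. At the level of genes the quantifications were closer. After removal of the general difference in scale, 0 of 33 members at 1 TPM or more in either table differed by a log2 beyond 1 in every library, against 78 of 9343 nuclear protein-coding genes (0.835%). The largest mean differences were -0.19 for Slc25a28 and 0.39 for Slc25a36.

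Levels of carriers varied between libraries about as much as those of other detected genes. Among detected members 0 of 32 had a highest library over 2 times the lowest, against 137 of 9068 nuclear protein-coding genes (1.51%). With so low a share over all genes, this count does not set the carriers apart. The ratios nearest to that limit were 1.61 for Slc25a37, 1.59 for Slc25a22 and 1.57 for Slc25a10. The median ratio was 1.17 for the members and 1.2 for all detected protein-coding genes, and the median coefficient of variation between libraries from edgeR was 0.117 for the members and 0.12 for detected nuclear protein-coding genes. Counting noise alone was exceeded by 28 of 38 members with a mean count of at least 10 (73.7%) in a chi-square test with Benjamini-Hochberg adjustment at 0.05, against 66.2% of 13403 annotated genes. Of the detected members alone 25 of 32 were called (78.1%), against 73.6% of genes in the same range of mean counts. Without replicate 2 the count was 17 (44.7%, against 44.2% of all genes) and without replicate 3 it was 18 (47.4%, against 42.9%). The share over all genes was thus lower too with 2 libraries. The 10 members not called were Slc25a14, Slc25a18, Slc25a20, Slc25a23, Slc25a26, Slc25a28, Slc25a38, Slc25a40, Slc25a43 and Slc25a53. Of these Slc25a20 had a mean count of 966 and Slc25a40 of 598.3, so their libraries differed by less than this test could tell from counting noise.

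The carriers as a set shifted little in each library. The median log2 ratio of a library to the mean of the others, after scaling for library size, was -0.02, 0.10 and -0.06 over the 38 members in replicates 1, 2 and 3, against -0.02, 0.03 and -0.02 over 13403 genes. A single library against the others allows no test. In replicate 2 the ratio was above 0 for 25 of 38 members, against 55.1% of all genes. Single carriers moved further, but wide ratios were no more than a minor part. A log2 ratio beyond 0.5 in either direction was found for 4, 4 and 1 of the 38 members in replicates 1, 2 and 3. Over all genes the shares beyond it were 13.5%, 14.9% and 16.5%. Slc25a10 had ratios of -0.50, 0.00 and 0.45, so its level was lowest in replicate 1 and highest in replicate 3. Slc25a22 had 0.34, -0.31 and -0.06 and Slc25a37 had 0.36, -0.45 and 0.05, both highest in replicate 1 and lowest in replicate 2. Slc25a33 stood at -0.50 in replicate 3. The ratios given for Slc25a10, Slc25a22, Slc25a37 and Slc25a33 all lay between the 5th and 95th percentile of all genes. The widest ratios belonged to low genes, among them Slc25a29 at -2.39 in replicate 1 and 2.16 in replicate 3, on 2 and 28 counts.

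**Figure D4:**
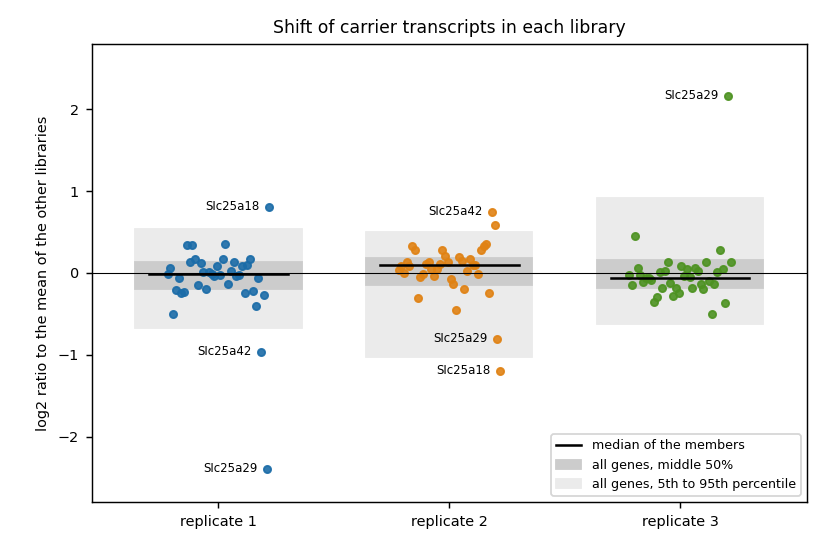
Log2 ratio of each library to the mean of the others for the 38 members with a mean count of at least 10 (points), their median (black bar) and all genes (dark grey for the middle 50%, light grey for the 5th to 95th percentile). The medians of the members are -0.02, 0.10 and -0.06, and the points outside the light band are mainly the low genes Slc25a29, Slc25a42 and Slc25a18.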

How the data were processed

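Analysis began from tables of total RNA-seq for 3 replicates of 1 group. The deposited gene and transcript files hold, per the file headers, expected counts and TPM over all rows in RSEM's layout. A second transcript file for each library has kallisto's layout, with estimated counts and TPM per the file headers, and was summed per gene. The deposited text names mm10 and GENCODE M21. Aligner, quantifier, their versions and the use of strand are not given in these sources. TPM is a share of the library, so very abundant short RNAs lower all other values.

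Members and gene lists were chosen with earlier results of these data known. Rows with no annotated gene, 0.774%, 0.207% and 0.167% of counts in replicates 1, 2 and 3, stayed out of library sizes. A gene was detected at 1 TPM or more in every library, and pairs were compared on log2(TPM + 1), with a pseudocount of 1. Named are the 10 highest and the 3 lowest detected members, pair members and those past the rules on transcripts and quantifications. After rounding of expected counts, edgeR 4.0.16 (R 4.3.3) gave TMM sizes and, with an intercept alone, dispersions of the 12646 genes past filterByExpr. The chi-square test of homogeneity used these sizes and was tested on simulated data. Size factors of DESeq2 1.42.0 were an alternative, as were other filters, pseudocounts, the second quantification and leaving out each replicate. Python 3.11.15 was used with pandas 2.3.3, scipy 1.17.1 and numpy 2.4.6. Exons were read from the GENCODE transcripts by their coordinates, and copies were searched with blastn 2.17.0 at 95% identity or more over 80% of the shorter sequence and 300 bases or more. Protein features were not analysed here, and 1 detected member is counted in the summaries but not reported by name. Limits from counts cover counting error only.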

Additional observations from a re-analysis of the deposited data

How the results depend on the processing

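The number of detected members was 32 and fell to 19 at a limit of 5 TPM, while it was 36 at 0.1 TPM, 27 in the second quantification, 34 after rescaling to nuclear protein-coding genes, 31 with coding transcripts alone and 32 to 33 without a replicate. The median level of 2.20 depends on scale and choice, at 1.41 in the second quantification, 3.74 after rescaling, 1.88 with a pseudocount of 0.1, 3.03 over detected members alone and 1.92 with coding transcripts alone. TPM in the second quantification was lower, with a median log2 ratio to the gene tables of -1.07, -0.93 and -1.54 in replicates 1, 2 and 3. This ratio was taken over detected nuclear protein-coding genes. The limit of 1 TPM was left unchanged, so the 27 detected members and the median of 1.41 are on another scale. The count of called pairs, 12, was 12 to 14 in every alternative. Slc25a13 minus Slc25a12 turned from -1.80 to 0.48 with coding transcripts alone, and lay between -2.07 and -1.53 in the others. Slc25a37 minus Slc25a28 was -0.42 and Slc25a5 minus Ucp2 was 0.40 with coding transcripts alone, both then called, and Slc25a37 minus Slc25a28 was also called without replicate 1, at -0.25. In the second quantification they were 0.12 and -0.38, opposite in sign to -0.13 and 0.05 in the gene tables. The setting with coding transcripts alone was chosen after seeing the data. Members beyond counting noise numbered 28, and 24 to 31 under other size factors, filters and the second quantification, which was 55.8% to 79.5% of the members tested and 41.1% to 74.3% of all genes. Leaving out a replicate gave 17 to 23, with 17 without replicate 2 and 18 without replicate 3. That was 44.7% to 60.5% of members, against 42.9% to 53.9% of all genes. The median shift of the members was 0.21 in replicate 2 and -0.16 in replicate 3 in the second quantification. The median over all genes in that setting is not given here, so these values do not set the carriers apart. The cause of the differences between settings was not tested. Replicate 1, with the fewest counts, limits the precision for members under about 1 TPM.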

Other observations

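Near-identical annotated copies of the members were assigned few counts, and how the quantifier divided shared reads was not tested. Annotated transcripts of at least 95% identity were found for Slc25a5, in the processed pseudogenes Gm5560 and Gm5529, and for Slc25a40, in Gm5066. The copies of Slc25a5 held 0.0762%, 0.0891% and 0.0875% of the counts of gene and copies together in replicates 1, 2 and 3. Annotated genes overlapped 16 of the 32 detected members, and in 2, Slc25a11 and Slc25a25, the overlapping gene had a mean count above 10% of the member's.

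Slc25a53, below the limit of detection at 0.64, 0.47 and 0.78 TPM over all transcripts, had 0.03, 0.05 and 0.07 TPM in coding transcripts alone. Its coding transcripts held 8.17%, 11.6% and 11.9% of the gene's expected counts in replicates 1, 2 and 3. The paralogues Slc25a5 and Slc25a4 were identical at 78.0% of 905 aligned bases, and they differed 5.31-fold in level on the TPM + 1 scale.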
